A study of Mus musculus with 2 samples.

Results

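The genes described here are 10 of the 55536 gene entries in the deposited tables, taken by symbol because they act in the export or the storage of cholesterol and other lipids: Abca1, Abcg1, Apoe, Pltp, Mylip, Ch25h, Soat1, Nceh1, Plin2 and Lpl. They were followed in polyadenylated RNA from cultured macrophages grown out of C57BL/6J mouse bone marrow. All cells belonged to 1 group with 2 biological replicates. They had received Lipid A, the lipopolysaccharide part sensed by the receptor Tlr4, at 100 ng/mL for 12 h, had then been kept 12 h without it, and were finally given 100 ng/mL again for 30 min. The free text of the labels names Lipid A, whereas their treatment field names lipoprotein A, and nothing in the labels settles which is right. Both biosamples point to a single donor record, and whether they came from separate animals is not stated, so the spread between them may be technical. No untreated or once-treated cells were analysed here, so no value below is a response to Lipid A. Replicate 2 held 30780681 counts over genes and replicate 1 held 41938419.

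Macrophages take up lipoproteins and dying cells and must dispose of the cholesterol that comes with them. Free cholesterol leaves through the membrane transporters Abca1, which loads lipid-poor apolipoprotein A-I, and Abcg1, which loads high-density lipoprotein, while secreted Apoe accepts lipid and Pltp moves phospholipid between particles. What is not exported is esterified by Soat1 and held in lipid droplets coated by Plin2, from which Nceh1 helps to release it. Many of these genes are activated by the liver X receptors (LXR), nuclear receptors that sense oxysterols such as the 25-hydroxycholesterol made by Ch25h.

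The cells carried the markers of macrophages. All 7 listed macrophage genes were at 1 TPM (a transcript level corrected for transcript length and library size) or more in both libraries, with medians of 735 TPM in replicate 2 and 897 TPM in replicate 1. The 6 adipocyte markers, among them Adipoq, were all at 0 counts, and a count of 0 allows up to 3, which is 0.0975 CPM in replicate 2 and 0.0715 CPM in replicate 1. The 7 stromal markers, which include fibrillar collagens, were all present and summed to 840 TPM in replicate 2 and 743 TPM in replicate 1. The 9 neutrophil markers summed to 15.3 TPM in replicate 2 and 82.8 TPM in replicate 1, and 3 of them reached 1 TPM in both. A single gene from each of the B cell, T cell and dendritic cell lists did so, namely Cd79b, Cd4 and Ccr7. In these bulk samples, fewer cells of a type and less RNA per cell cannot be told apart.

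Apoe dominated the group. Of the 10 genes, 9 reached 1 TPM in both libraries and 7 reached 100 TPM, a level met by 1224 of 22028 protein-coding genes. Together the 10 genes held 0.578% of all TPM in replicate 2 and 1.16% in replicate 1, and Apoe made up 70.4% and 77.0% of that. The median gene of the 10 stood at 160 TPM in replicate 2 and 178 TPM in replicate 1. Protein-coding genes that reached 1 TPM in both had medians of 16.4 and 17.5 TPM.

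**Figure D1:**
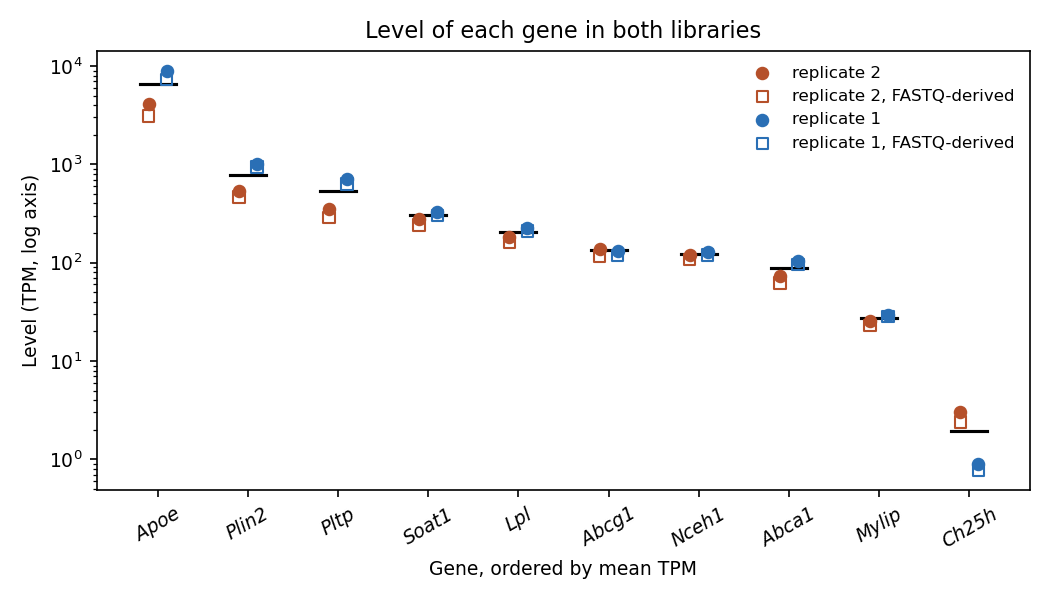
Level of each gene in TPM on a log axis, ordered by mean, with replicate 2 left of replicate 1. Filled circles are the alignment-derived gene table, open squares the FASTQ-derived table and bars the mean of the circles (n = 2); Apoe lies highest, at 4075 and 8958 TPM, and Ch25h lowest, at 3.02 and 0.890 TPM.

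Among the secreted acceptors and carriers, Apoe, the apolipoprotein that macrophages release with lipid (ENSMUSG00000002985.16, chromosome 7, 19696109 to 19699188, minus strand, mm10), stood at 4075 TPM in replicate 2 and 8958 TPM in replicate 1, a mean of 6516 ± 3453 TPM (SD, n = 2). This placed it 19th among protein-coding genes in replicate 2 and 13th in replicate 1. Pltp, the phospholipid transfer protein (ENSMUSG00000017754.13, chromosome 2, 164839518 to 164857711, minus strand), stood at 352 TPM in replicate 2 and 716 TPM in replicate 1, a mean of 534 ± 258 TPM. Both were higher in replicate 1, and the ratio of Pltp to Apoe TPM was nearly equal, at 0.0864 in replicate 2 and 0.0800 in replicate 1. The Pltp level carries an annotation limit. Of its 2562 exonic bases, 495 lie within exons of Ctsa, a lysosomal carboxypeptidase gene on the other strand at 1033 TPM in replicate 2 and 1226 TPM in replicate 1, and 13.9% of the 31-base words in Pltp transcripts also occur in Ctsa. The sources used here do not state if counts were strand-specific.

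The transporters were far lower than Apoe, and the libraries lay closer together for Abcg1 than for Abca1. Abcg1 (ENSMUSG00000024030.7, chromosome 17, 31057675 to 31117988, plus strand) stood at 137 TPM in replicate 2 and 131 TPM in replicate 1, a mean of 134 ± 4.53 TPM (SD, n = 2). Abca1 (ENSMUSG00000015243.4, chromosome 4, 53030787 to 53159895, minus strand) stood at 73.0 TPM in replicate 2 and 105 TPM in replicate 1, a mean of 89.0 ± 22.5 TPM. Abca1 thus had 0.533 times the level of Abcg1 in replicate 2 and 0.804 times in replicate 1, with the transporters in the same order in both libraries. Mylip, also known as Idol, an LXR-induced ubiquitin ligase (ENSMUSG00000038175.10, chromosome 13, 45389742 to 45412022, plus strand), stood at 25.7 TPM in replicate 2 and 29.6 TPM in replicate 1.

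The storage and release genes spanned 119 to 1013 TPM. Plin2, the droplet coat protein (ENSMUSG00000028494.12, chromosome 4, 86648386 to 86670060, minus strand), stood at 536 TPM in replicate 2 and 1013 TPM in replicate 1, a mean of 774 ± 337 TPM (SD, n = 2). Soat1, the cholesterol esterifying enzyme (ENSMUSG00000026600.12, chromosome 1, 156424525 to 156474331, minus strand), stood at 280 TPM in replicate 2 and 329 TPM in replicate 1, a mean of 305 ± 34.3 TPM. Nceh1, the neutral cholesterol ester hydrolase (ENSMUSG00000027698.14, chromosome 3, 27182965 to 27284608, plus strand), stood at 119 TPM in replicate 2 and 127 TPM in replicate 1, so that Soat1 was 2.35 and 2.58 times its level. Lpl, the lipase that releases fatty acids from triglyceride-rich lipoproteins (ENSMUSG00000015568.16, chromosome 8, 68880491 to 68907448, plus strand), stood at 183 TPM in replicate 2 and 226 TPM in replicate 1, a mean of 205 ± 30.4 TPM.

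Ch25h, the cholesterol 25-hydroxylase (ENSMUSG00000050370.5, chromosome 19, 34473778 to 34475164, minus strand), was the lowest of the 10 genes, at 3.02 TPM on 71 counts in replicate 2 and 0.890 TPM on 28 counts in replicate 1. It was also the only one of them below 1 TPM in a library. Of its 1387 exonic bases, 159 overlap an exon of Gm26902, a non-coding gene on the opposite strand that held 16 counts in replicate 2 and 4 in replicate 1. Of the 31-base words in Ch25h, 9.51% also occur in Gm26902, and the limit on strand given for Pltp applies here too.

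By mean TPM the order was Apoe, Plin2, Pltp, Soat1, Lpl, Abcg1, Nceh1, Abca1, Mylip and Ch25h. It was the same in each library taken alone. The ranges of Plin2 and Pltp over the libraries overlapped, since both were lower in replicate 2, while within a library Plin2 was 1.52 times Pltp in replicate 2 and 1.41 times in replicate 1. The ranges of all other neighbours were apart in the alignment-derived table, although Abcg1 exceeded Nceh1 by 1.08 times only. In the FASTQ-derived table the ranges of Pltp and Soat1 and of Abcg1 and Nceh1 overlapped too, and Nceh1 was above Abcg1 in replicate 1, at 120 against 119 TPM. No test of these orders was made.

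Between the libraries, Apoe, Pltp and Plin2 were lower in replicate 2 by close to 2-fold, and Ch25h was higher. The comparison used the log2 ratio of scaled counts, replicate 2 over replicate 1, with an exact 95% interval that covers counting error only. With 1 library on each side it has no replicate check and no p, and a gene was called where the ratio reached 2-fold in either direction with at least 20 counts in each library. By this rule 2 of the 10 genes were called, against 2.46% of 12471 genes. Of these 1 was called lower, Apoe, against 0.521%, and 1 was called higher, Ch25h, against 1.94%. Over the 10 genes the median log2 ratio was -0.20 with 8 below 0, and over all 12471 genes it was -0.02 with 53.6% below 0.

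Apoe had 51446 counts in replicate 2 and 150967 in replicate 1, a log2 ratio of -1.10 (interval -1.11 to -1.09). Pltp had 11131 counts in replicate 2 and 29757 in replicate 1, a log2 ratio of -0.96 (-0.997 to -0.934), just short of the 2-fold limit. Plin2 had 15253 counts in replicate 2 and 39011 in replicate 1, a log2 ratio of -0.90 (-0.93 to -0.87). All 3 lay at the low end of the whole library, since 0.337%, 0.577% and 0.802% of counted genes had ratios as low as or lower than those of Apoe, Pltp and Plin2. Pltp passed the limit on the ratio of TPM, at -1.02, and in the FASTQ-derived counts, at -1.01. Ctsa, which overlaps Pltp, had a log2 ratio of -0.23 (-0.25 to -0.21).

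Abca1 came next, with 15454 counts in replicate 2 and 29360 in replicate 1, a log2 ratio of -0.47 (-0.50 to -0.44). Lpl stood at -0.25 (-0.28 to -0.22), and Mylip, Soat1, Nceh1 and Abcg1 lay between -0.15 and 0.13, within the bulk of all genes. Ch25h had a log2 ratio of 1.78 (1.15 to 2.48), and 99.6% of counted genes had a ratio at or below it. Its wide interval goes with its few counts, and with a minimum of 100 counts in each library it was not counted. Gm26902, which overlaps Ch25h, had a log2 ratio of 2.30 (0.82 to 4.49) on 16 counts in replicate 2 and 4 in replicate 1. Abcg1 and Apoe are both known LXR targets, and their counting intervals did not overlap. At such high counts these intervals are narrow, and any part of LXR in either ratio was not tested.

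The neutrophil markers were lower in replicate 2 as well, as their summed levels show. Of the 9 markers 2 had at least 20 counts in each library, and they differed in size. S100a9 had 26 counts in replicate 2 and 277 in replicate 1, a log2 ratio of -2.94. Mmp8 had 249 counts in replicate 2 and 453 in replicate 1, a log2 ratio of -0.41. Ribosomal RNA differed too, with 4.25% of counts on the gene CT010467.1 in replicate 2 and 1.37% in replicate 1. Of the 7 macrophage markers 6 had log2 ratios below 0, down to -0.61 for Itgam, and Lyz2 stood at 0.50. The 7 stromal markers all had ratios above 0, at 0.09 to 0.32. The part of any of these in the ratios of Apoe, Pltp, Plin2 and Ch25h was not tested.

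**Figure D2:**
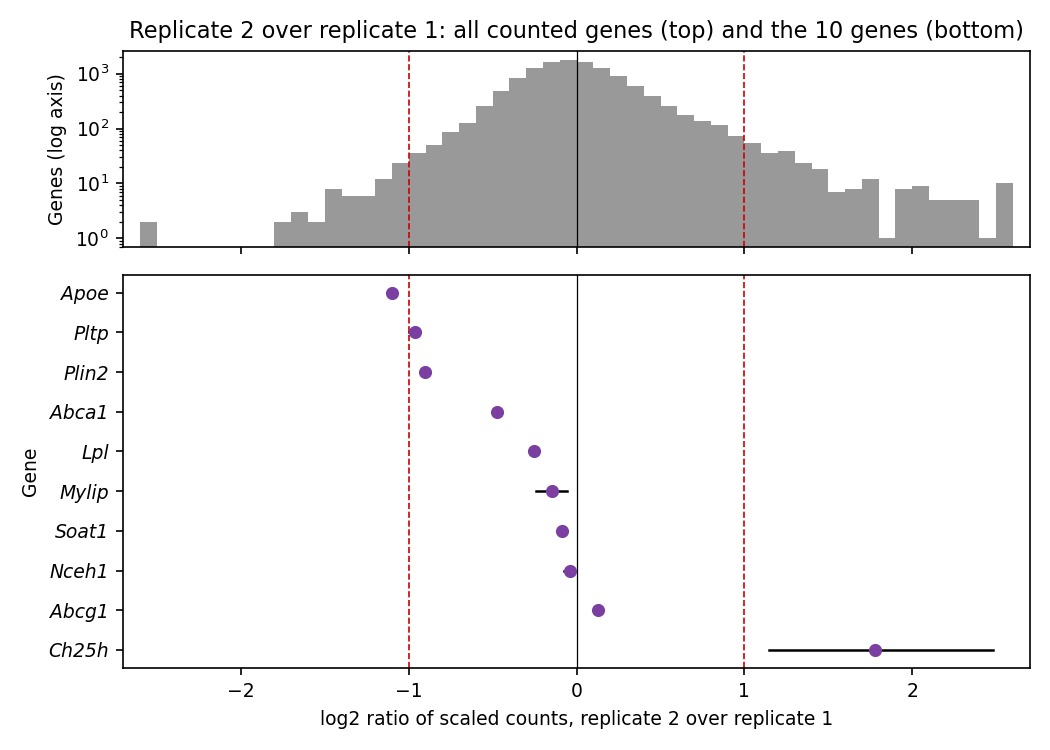
Log2 ratio of scaled counts, replicate 2 over replicate 1, for all 12471 counted genes (top, number of genes on a log axis, with values beyond 2.6 drawn in the outermost bars) and for the 10 genes (bottom, points with exact 95% counting intervals). Dashed lines mark 2-fold; Apoe at -1.10 and Ch25h at 1.78 lie outside them, and Pltp and Plin2 just inside.

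Most Apoe abundance was assigned to a transcript that is not annotated as coding. Apoe-202, a processed transcript of 728 bases, held 2885 TPM in replicate 2 and 6433 TPM in replicate 1, which is 70.8% and 71.8% of the gene (mean 71.3 ± 0.717%, SD, n = 2). The coding transcripts Apoe-209 and Apoe-206 held 13.8 ± 0.0371% and 13.4 ± 0.667%. In the FASTQ-derived table Apoe-202 held 69.0% in replicate 2 and 70.4% in replicate 1. Both deposited quantifications thus gave it the largest share, in both libraries. In expected counts its share was lower, 52.7% in replicate 2 and 54.7% in replicate 1, because TPM divides by transcript length. Summed over coding transcripts alone, Apoe stood at 1187 TPM in replicate 2 and 2515 TPM in replicate 1, still the highest of the 10 genes, and its log2 ratio of TPM was -1.08.

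Apoe-202 differs from the coding transcripts inside the last exon. It leaves out 386 bases, chr7:19696338-19696723, of which 341 belong to the 933 coding bases of the longest of them, Apoe-206. The junction and both ends of the skipped stretch are shown because Apoe-202 is told apart there. They were read from the GENCODE M21 transcripts (mm10, minus strand, within chr7:19696323-19696738), in lower case, with capitals for the bases that meet at the junction and for the outermost bases of the skipped stretch.
Apoe-202 junction: ctctggtggagcaAGGTggccctgtctcaa
start of the skipped segment: GTcgccagcgcactg
end of the skipped segment: tccatatccagccAG
The skipped stretch starts with GT and ends with AG, the usual ends of an intron. The 4 bases AGGT stand across both of its borders in the reference, so the exact join could lie at any base within them. Only 26 of the 698 31-base words of Apoe-202, or 3.72%, occur in no other Apoe transcript. The stretch it skips, which Apoe-209 and Apoe-206 contain, also tells them apart. Reads over the junction or over that stretch were not examined, so the share of Apoe-202 remains an uncertain estimate.

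**Figure D3:**
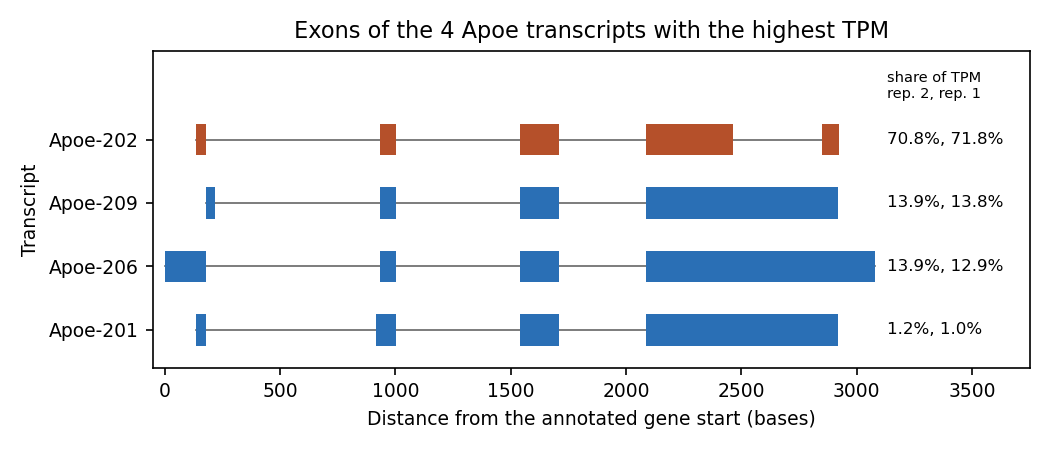
Exons (boxes) of the 4 Apoe transcripts with the highest TPM, drawn to scale by distance in bases from the annotated gene start, with each transcript's share of the gene's TPM in replicate 2 and then replicate 1. Apoe-202, in the other colour, lacks 386 bases of the last exon and holds 70.8% and 71.8%.

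The other genes were carried mainly by coding transcripts. The 10 genes had 54 annotated transcripts, and 14 of these reached 10% of their gene's TPM in a library. In 6 genes a single transcript held at least 90% on average: Abca1-201, Abcg1-201, Lpl-201, Mylip-201, Nceh1-201 and the only Ch25h transcript. In the FASTQ-derived table this held for 5 genes, since Nceh1-201 had 85.8% in replicate 2 and 87.4% in replicate 1, and 15 transcripts reached 10%. Pltp-201 held 88.0% of Pltp in replicate 2 and 89.9% in replicate 1.

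Plin2 was divided between Plin2-201, at 77.8% in replicate 2 and 79.9% in replicate 1, and the shorter Plin2-207, at 14.7% and 12.8%. By TPM, Soat1 had the lowest leading share of all the genes, Apoe included. Soat1-201 held 63.4% in replicate 2 and 59.0% in replicate 1, and Soat1-206 held 21.5% and 24.4%. Soat1-206 has 366 bases and held only 0.912% of Soat1's expected counts in replicate 2 and 1.24% in replicate 1. Its share of TPM therefore rests on few counts and a short length, and the same division by length enters the level of Soat1 as a whole. In Nceh1, transcripts not annotated as coding held 8.07% of TPM in replicate 2 and 8.09% in replicate 1, against 14.1% and 12.6% in the FASTQ-derived table.

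**Figure D4:**
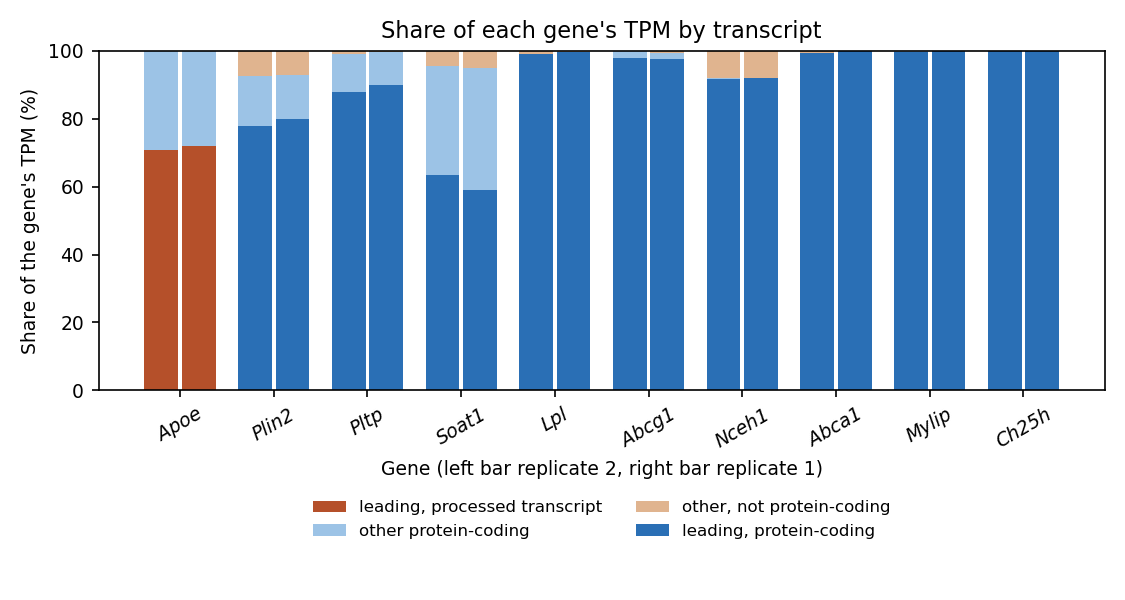
Share of each gene's TPM by transcript, in percent, with replicate 2 as the left bar and replicate 1 as the right bar of each gene. Apoe alone is led by a processed transcript, at 70.8% and 71.8%, and Soat1-201 holds 63.4% and 59.0% of Soat1.

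Promoter sequences were available from RefSeq (GRCm38.p6, the assembly of mm10) for 8 of the 10 genes, all but Abcg1 and Lpl. The 250 bases before the RefSeq start are printed for Apoe, Pltp and Plin2, the genes that were lower together in replicate 2, and for Abca1, whose promoter is known to hold an LXR element. Each reads 5′ to 3′ on the strand of its gene, all minus, and capitals mark matches on either strand to a direct repeat of AGGTCA spaced by 4 bases, to the TATA box TATAAA, to the GC box GGGCGG, or to the E-box CACGTG.
Apoe promoter, chr7:19699189-19699438: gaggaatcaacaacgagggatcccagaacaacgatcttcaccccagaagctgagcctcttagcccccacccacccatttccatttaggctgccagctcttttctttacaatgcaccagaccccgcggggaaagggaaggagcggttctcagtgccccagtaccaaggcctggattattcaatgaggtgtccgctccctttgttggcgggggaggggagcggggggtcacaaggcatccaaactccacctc
Pltp promoter, chr2:164857709-164857958: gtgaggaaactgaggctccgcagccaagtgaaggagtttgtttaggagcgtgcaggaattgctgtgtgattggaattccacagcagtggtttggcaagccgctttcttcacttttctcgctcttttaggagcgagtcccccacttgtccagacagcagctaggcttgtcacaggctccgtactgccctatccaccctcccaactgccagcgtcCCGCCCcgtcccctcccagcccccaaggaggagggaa
Plin2 promoter, chr4:86670060-86670309: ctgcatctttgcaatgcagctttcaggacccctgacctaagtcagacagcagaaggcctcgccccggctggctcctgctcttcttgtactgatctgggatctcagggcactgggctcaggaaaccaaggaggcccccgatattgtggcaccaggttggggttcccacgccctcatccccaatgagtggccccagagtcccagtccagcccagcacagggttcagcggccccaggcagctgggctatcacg
Abca1 promoter, chr4:53159896-53160145: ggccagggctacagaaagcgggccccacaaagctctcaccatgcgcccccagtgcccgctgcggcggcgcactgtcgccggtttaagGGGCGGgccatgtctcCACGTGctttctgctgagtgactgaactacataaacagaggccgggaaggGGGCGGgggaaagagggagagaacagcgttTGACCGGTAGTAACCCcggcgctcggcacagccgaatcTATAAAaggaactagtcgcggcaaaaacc
The repeat of AGGTCA is the kind bound by LXR with its partner RXR, and it was searched with up to 3 mismatches in its fixed letters. Abca1 held 1 match starting 67 bases before the start, which used all 3 allowed mismatches, so a stricter limit would have missed it. None of the other 7 promoters searched held one, against 18.5% of 32851 promoter windows. TATAAA was found in Abca1, Mylip and Ch25h, against 12.4% of windows. It lay 29 bases before the start in Abca1, 32 in Mylip and 151 in Ch25h. GGGCGG occurred 2 times in Abca1 and once each in Pltp and Mylip, against 32.7%, and the E-box CACGTG in Abca1 and Nceh1, against 6.02%. TGANTCA, bound by AP-1 factors, and GAAA repeated after 2 bases, a core of interferon response elements, matched none of the 8, against 6.75% and 2.98% of windows. The Apoe and Plin2 windows held no match to any of the 6 motifs. For Apoe 3 RefSeq windows were available, and only the window at the annotated gene start was searched. Apoe-202, the leading transcript, starts 136 bases further in. A match or its absence describes these windows only, and the motifs were chosen with results of these data known.

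Genes around this group were read from 8 further lists, which hold 95 genes outside the 10. Of these 95 genes 68 reached 1 TPM in both libraries and 73 had enough counts for the 2-fold rule. By it 3 were called lower in replicate 2, among them Cd36 and Mgll, and 1 higher, Dgat2, against the shares of all genes given above, 0.521% and 1.94%. The median log2 ratio of the 73 was -0.06.

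The nuclear receptors that drive export were present. Nr1h3, which encodes LXR alpha, stood at 104 TPM in replicate 2 and 149 TPM in replicate 1, and was 2.08 and 2.61 times as high as Nr1h2, which encodes LXR beta. The co-repressor Ncor1 stood at 70.9 TPM in replicate 2 and 81.3 TPM in replicate 1. All 14 receptor and cofactor genes were at 1 TPM or more, the lowest being Ppard at 11.9 and 13.2 TPM. Of the 14, 0 were called in either direction, against 2.46% of all counted genes. Their log2 ratios were below 0 in 12 of the 14, down to -0.89 (-0.95 to -0.82) for Rxra. Among 13 other LXR targets, 11 reached 1 TPM in both libraries and 0 of the 10 counted were called. Log2 ratios of these 10 ran from -0.72 for Cd5l to 0.97 for Scd1, with 5 below 0. By level these other targets were led by Cd5l, a secreted macrophage protein, at 203 and 346 TPM. The desaturase Scd2 followed at 188 and 162 TPM, and Smpdl3a at 174 and 175 TPM. The lowest, the transporter Abcg4, had 2 counts in replicate 2 and 0 in replicate 1.

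Uptake genes included the sharpest difference in the related lists. Cd36, a scavenger receptor for oxidised lipoproteins and fatty acids, was counted 2122 times in replicate 2 and 9813 times in replicate 1, which gave a log2 ratio of -1.76 (-1.82 to -1.69). The other 9 counted uptake genes were not called. Fabp5, a fatty acid binding protein, stood at 3802 TPM in replicate 2 and 4199 TPM in replicate 1, the scavenger receptor Msr1 at 310 and 362 TPM, and the scavenger receptor Marco at 318 and 284 TPM. Olr1 was lowest, at 0.170 and 0.310 TPM.

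Of 22 listed droplet and neutral lipid genes 13 reached 1 TPM in both libraries, and 4, Plin1, Plin5, Cidea and Cidec, had 0 counts in both. Plin2 was 15.8 times as high as Plin3 in replicate 2 and 26.3 times in replicate 1, and Soat1 was 230 and 343 times as high as Soat2. Nceh1 was 4.99 and 4.71 times as high as Lipe, which encodes hormone-sensitive lipase. The highest listed genes were Bscl2, which encodes the droplet biogenesis protein seipin, at 64.8 TPM in replicate 2 and 76.1 TPM in replicate 1, the acyl-CoA synthetase Acsl1 at 68.8 and 44.0 TPM, and the lipase Pnpla2 at 31.3 and 45.2 TPM. Mgll, monoacylglycerol lipase, had 348 counts in replicate 2 and 972 in replicate 1, a log2 ratio of -1.03 (-1.21 to -0.85). Dgat2, which makes triglyceride, had 74 counts in replicate 2 and 49 in replicate 1, a log2 ratio of 1.04 (0.51 to 1.60), an interval that reaches below 2-fold.

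Of 15 genes of lysosomal and intracellular sterol transport 14 were counted and 0 were called, against 2.46% of all counted genes. The list had medians of 66.9 TPM in replicate 2 and 65.2 TPM in replicate 1. Npc2 stood at 968 TPM in replicate 2 and 969 TPM in replicate 1, the mitochondrial translocator Tspo at 567 and 614 TPM, and the lysosomal acid lipase Lipa at 450 and 558 TPM, while Gramd1c was lowest at 0.170 and 0.220 TPM. Other export genes were low: of 8, 4 reached 1 TPM in both libraries, Scarb1 at 44.9 TPM in replicate 2 and 50.1 TPM in replicate 1, Bmp1 at 11.9 and 11.8 TPM and Abca7 at 4.26 and 4 TPM among them, and Apoa1 had 0 counts. Of 7 oxysterol genes 2 reached 1 TPM in both, Hsd3b7 at 31.6 TPM in replicate 2 and 32.9 TPM in replicate 1 and Cyp27a1 at 12.7 TPM in each. Gpr183, the receptor for an oxysterol made downstream of Ch25h, stood at 0.920 and 0.760 TPM, and Cyp46a1 was lowest with 1 count in each.

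Of 11 listed partners and regulators of Lpl, 6 reached 1 TPM in both libraries. A further 4, Gpihbp1, Angptl8, Apoc3 and Apoa5, had 0 counts in both. Sel1l, which acts in the maturation of Lpl, stood at 52.7 TPM in replicate 2 and 50.0 TPM in replicate 1. The Lpl activator Apoc2 stood at 37.2 and 56.6 TPM, Lmf2 at 15.01 and 22.2 TPM, and Lmf1 at 10.4 and 13.2 TPM.

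**Figure D5:**
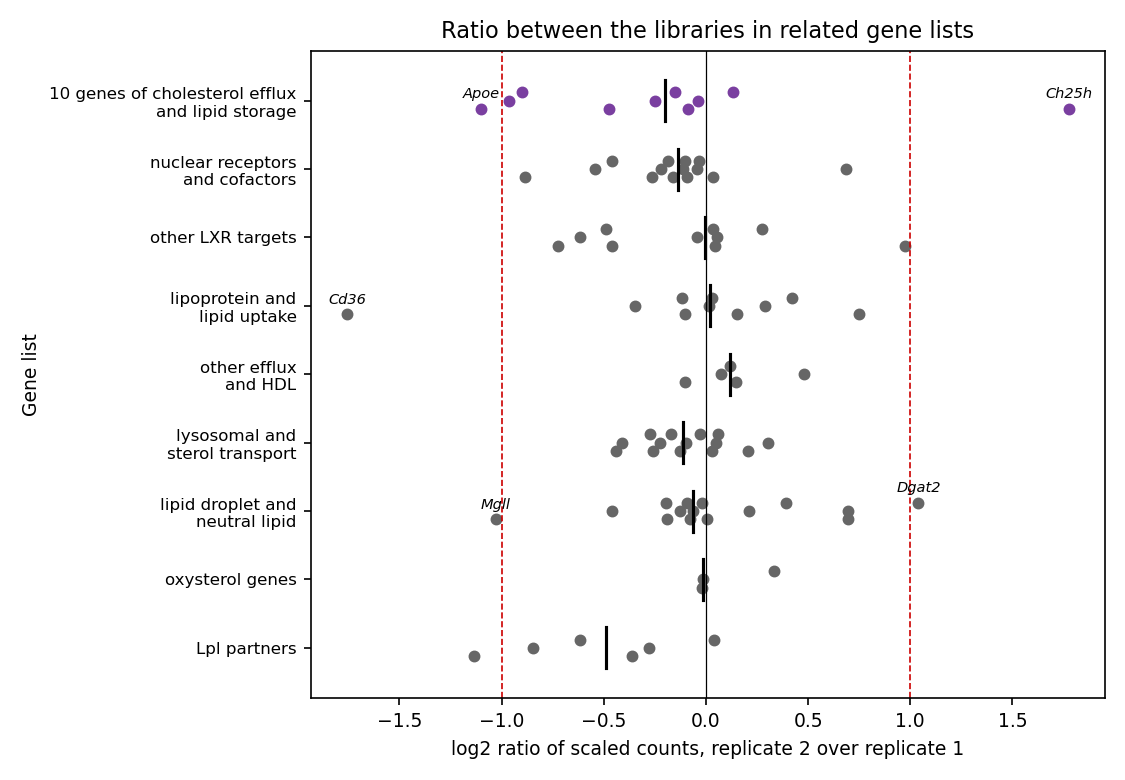
Log2 ratio of scaled counts, replicate 2 over replicate 1, for the genes of each list with at least 20 counts in both libraries (points, with the median of each list as a vertical bar). Dashed lines mark 2-fold and Cd36, Mgll, Dgat2, Apoe and Ch25h beyond them are named; the 10 genes are in the top row, with Apoe at -1.10 and Ch25h at 1.78, and Cd36 at -1.76 is the lowest point.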

How the data were processed

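Values came from 3 deposited tables per library, made on mm10 with GENCODE M21, per the deposited notes. The authors deposited expected counts and TPM per gene and per transcript from a transcriptome alignment, and estimated counts and TPM per transcript directly from FASTQ files. The sources used here do not name the quantification tools. Genes were matched by symbol, and all 55536 gene entries were in the GENCODE M21 annotation. A further 26345 entries that name no gene, 0.0667% of counts in replicate 2 and 0.0526% in replicate 1, stayed out of library sizes.

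Expected counts were rounded and scaled with TMM in edgeR 4.0.16 (R 4.3.3), and log2 ratios had 0.5 added. Intervals are exact (Clopper-Pearson) at 95%. They and the floor of 3 counts cover counting error only, since reads are not independent molecules. DESeq2 1.42.0 size factors, total counts, a prior count of 5, minimums of 100 counts or none, and the FASTQ-derived table were alternatives. For levels, TPM rescaled over nuclear protein-coding genes was another. The 2-fold rule was tested on simulated data with changes well above 2-fold, planted in genes with many counts only. Changes near the 2-fold limit, as for Apoe and Pltp, or at few counts, as for Ch25h, were not covered. The simulated spread between libraries was also set below the spread estimated from these libraries. How often unchanged genes pass the rule at the latter spread was therefore not covered either. Other steps ran in Python 3.11.15 with scipy 1.17.1, pandas 2.3.3 and numpy 2.4.6, and plots in matplotlib 3.10.9.

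The 10 genes, the lists and the alternatives were chosen with earlier results of these data known. All 10 genes are named, and from each related list the 3 highest, the lowest and every gene past the 2-fold rule, except a few that are not reported here. Other genes named, such as S100a9, Plin3, Soat2 and Lipe, were picked with their values in view. The likeness of genes across samples was not computed, because 2 libraries give 1 ratio per gene.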

Additional observations from a re-analysis of the deposited data

How the results depend on the processing

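The order of the 10 genes by mean level was the same in the FASTQ-derived table, in each library alone and over coding transcripts only, an alternative added after the data were seen. FASTQ-derived levels were 0.797 to 0.931 times the alignment-derived ones, and over coding transcripts only Apoe fell to 1851 TPM. Rescaled over nuclear protein-coding genes, levels were 1.12 to 1.14 times the main ones, and 4 of 10 moved beyond 1 SD. No ratio changed sign under DESeq2 size factors, total counts, a prior count of 5, FASTQ-derived counts or TPM. The 2-fold rule gave 2 lower genes, Apoe and Pltp, in place of 1 with FASTQ-derived counts and with TPM, and 0 higher genes in place of 1 at 100 counts. Over all genes it gave 104 higher and 32 lower at 100 counts, 2993 and 2581 without a filter, and 119 lower with TPM, against 242 and 65. The ratio of TPM was added after the data were seen. Without replicate 1, levels were 0.625 to 1.54 times the mean and without replicate 2, 0.455 to 1.37 times, Ch25h giving 1.54 and 0.455. No paired analysis was possible because there is only 1 group. Depth limits Ch25h most, at 71 and 28 counts.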
